A study of Rattus norvegicus with 31 samples.

Results

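The comparison described here is that of tail motor neurons taken 2 days after complete transection of the spinal cord (Spi-2, 6 arrays) with those of uninjured rats (Control, 4 arrays). The arrays were chosen by their labelled injury stage alone, so 10 of the 31 arrays of the series belong to the comparison, and every probe set other than the Affymetrix controls was used (12913 probe sets). All animals were adult male Wistar rats. In Spi-2 animals the cord was cut at the second sacral segment, whereas Control animals were uninjured and no sham operation is described, so that the cut cannot be told apart from anaesthesia and surgery. In both groups the motor neurons had been labelled retrogradely with Fluoro-Gold and cut out by laser from frozen sections below the level of the lesion. Each array held the pooled neurons of 1 animal after 2 rounds of linear amplification, and no marker gene was used in the selection of cells. A further 5 arrays at day 7 (Spi-7) were made in the same study, while those of day 21 (Spi-21, 8 arrays) and day 60 (Spi-60, 8 arrays) came from an earlier one.

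Alpha motor neurons below a transection lose their descending and many of their local inputs while their axons to the muscle stay in place, which sets the lesion apart from a cut of the peripheral nerve. After nerve injury, motor neurons are known to switch on a programme of transcription factors, cytoskeletal proteins and growth factor receptors that accompanies axon regrowth. In the injured cord, microglia and blood-borne macrophages gather around neurons within days, and astrocytes raise their intermediate filament protein.

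All values are log2 expression levels after robust multi-array averaging (RMA), in which 1 unit stands for a 2-fold difference. A gene was called higher or lower when its probe set had a Benjamini-Hochberg adjusted p under 0.05 in a limma fit over all 31 arrays and 12913 probe sets, and adjusted p values below come from that fit. Changes are Spi-2 minus Control with the standard error (SE). Levels were not compared between genes, since the brightness of a probe set also depends on its sequence.

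The dissected cells carried some of the markers of motor neurons in both groups. Nefh, the heavy neurofilament subunit, lay at 13.93, 14.13 and 14.33 (lowest, median and highest of the 6 Spi-2 animals) and at 13.96, 14.18, 14.26 and 14.34 in the 4 Control animals, a change of -0.07 ± 0.11 (adjusted p = 0.766). The mean over the 6 measured motor neuron markers was 10.13 to 10.54 in Spi-2 animals and 10.08 to 10.85 in Control animals. Among the 6, Isl1 was dim, with means of 5.66 ± 0.14 in Spi-2 and 5.75 ± 0.19 in Control (SD). The medians of the arrays were 6.00 or more. Within this list Slc5a7, the high-affinity choline transporter, was lower at day 2, with 9.90, 10.18 and 11.33 in Spi-2 (lowest, median, highest) against 11.11, 11.64, 11.65 and 11.76 in Control (-1.18 ± 0.30, adjusted p = 0.0128). Its highest Spi-2 value exceeded the lowest Control value. With the Gapdh covariate, described below, it was not called (-0.96, adjusted p = 0.0701). Prph, the peripheral neurofilament protein peripherin, passed narrowly (0.59 ± 0.19, adjusted p = 0.0484) and lost its call without any of 8 animals, with the smallest change, 0.44 (adjusted p = 0.21), without Control replicate 1. Chat and Mnx1 were not analysed here.

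Some animals stood apart from the rest of their group. Spi-2 replicate 4 carried markers of other tissues: its mean over 5 fibroblast and pericyte genes was 9.33, against 5.35 to 5.75 in the other Spi-2 animals and 5.36, 5.36, 6.15 and 5.36 in Control. Col3a1, a fibrillar collagen, read 11.85 in that animal and 4.50 to 5.46 in the other Spi-2 animals, and the list means of neutrophil (7.67 against 5.01 to 5.41), endothelial (7.57 against 5.79 to 6.08), Schwann cell (9.24 against 7.97 to 8.41) and erythrocyte genes (7.41 against 6.08 to 6.45) were also highest there. None of the genes on these 5 lists was called. For most immune genes named below the change without Spi-2 replicate 4 is also given.

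Control replicate 4 had the lowest mean of the oligodendrocyte genes, 8.23 against 9.03 to 9.07 in the other Control animals. Spi-2 replicate 2 lay nearest to Control on the first principal component. The arrays had near-equal medians, 6.00 to 6.10 in Spi-2 and 6.00 to 6.04 in Control, after the authors' quantile normalization. The difference between the 3′ and the 5′ probe set of Gapdh, a measure of how far transcripts were shortened by degradation and amplification, averaged 2.82 ± 0.36 in Spi-2 and 2.01 ± 0.33 in Control (SD, n = 6 and 4). That gap of 0.81 had a 2-sided exact permutation p of 0.019. The same difference for beta-actin averaged 2.82 ± 0.37 in Spi-2 and 2.89 ± 0.19 in Control, a gap of -0.06 (permutation p = 0.714). The part of the Gapdh gap in the results below was not tested beyond a fit that holds the Gapdh measure as a covariate. In that fit 768 probe sets were called.

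In all, 1146 of 12913 probe sets were called (8.87%), 503 of them higher in Spi-2 (3.9%) and 643 lower (4.98%). With 1 probe set a gene, 964 of 9769 genes were called (9.87%), 428 higher (4.38%) and 536 lower (5.49%), and the median change over all genes was 0.00. These shares are the background against which each gene list is read below. Of the called probe sets, 741 had no overlap between the 6 Spi-2 and the 4 Control animals, which is 5.74% of those tested, whereas groups without overlap, called or not, made up 9.39%. The median size of the called changes was 0.65 for the higher and 0.71 for the lower probe sets. Changes of 1 log2 unit or more were measured in 76 higher and 107 lower probe sets, and changes of 2 log2 units or more in 11 higher and 3 lower. Leaving out each of the 10 animals in turn, 473 of the 1146 kept their call every time, 180 higher and 293 lower. The count itself fell by over 1.5 times without Control replicate 1 (747), Control replicate 2 (758) or Control replicate 3 (675).

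**Figure D1:**
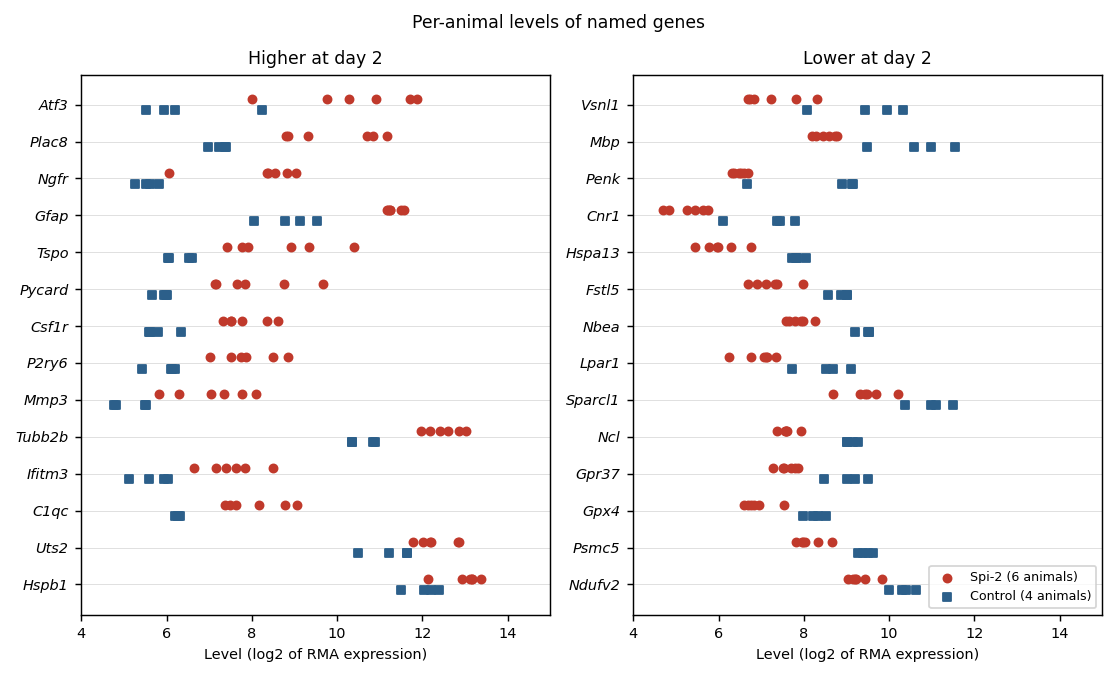
Log2 RMA level (x axis) of 14 genes called higher and 14 called lower at day 2, with 1 red circle for each of the 6 Spi-2 animals and 1 blue square for each of the 4 Control animals. Atf3 ranged from 8.00 to 11.88 in Spi-2 animals and from 5.52 to 8.23 in Control animals, while Psmc5 ranged from 7.82 to 8.67 in Spi-2 and from 9.26 to 9.61 in Control.

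**Figure D2:**
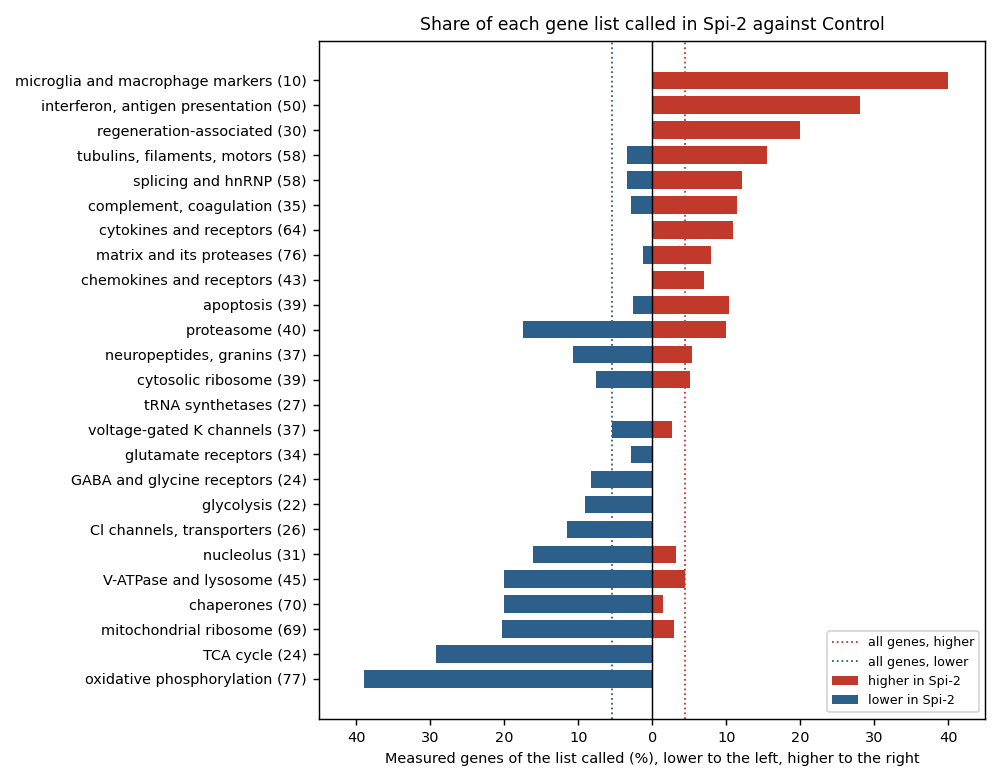
Percent of the measured genes of each list (number in brackets) called higher in Spi-2 to the right and lower to the left, with dotted lines at the 4.38% and 5.49% of all genes. Oxidative phosphorylation (30 of 77 lower) and the microglia and macrophage markers (4 of 10 higher) lie at the 2 ends.

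Genes of the axon injury response were the first group. Of 30 measured regeneration-associated genes, 6 were called higher and none lower, with a median change of 0.19 over the list. The gene that rose most in the whole comparison was Atf3, a stress-induced transcription factor of injured neurons. It read 11.71, 8.00, 10.28, 9.77, 11.88 and 10.91 in Spi-2 replicates 1 to 6, against 5.95, 8.23, 5.52 and 6.20 in Control (3.95 ± 0.71, adjusted p = 0.000662). Spi-2 replicate 2 was the lowest of its group and lay just under Control replicate 2, the only overlap.

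Tubb2b, a beta-tubulin of growing neurons, was at 11.97, 12.51 and 13.03 in Spi-2 (lowest, median, highest) and at 10.88, 10.85, 10.35 and 10.35 in Control (1.90 ± 0.31, adjusted p = 0.000302). All Spi-2 animals exceeded all Control animals. Tubb6, another beta-tubulin, rose as well, with 5.51, 6.33 and 7.41 in Spi-2 and 5.13, 4.56, 4.91 and 4.98 in Control (1.45 ± 0.28, adjusted p = 0.00114). They were the only 2 of 8 measured tubulins that were called, a subset looked at after the values were seen.

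Ngfr, the low-affinity neurotrophin receptor p75, stood at 8.38, 6.05, 8.54, 8.36, 8.82 and 9.03 in the Spi-2 animals and at 5.27, 5.52, 5.82 and 5.61 in Control (2.64 ± 0.63, adjusted p = 0.00714). The groups did not overlap, but Spi-2 replicate 2 stood far below the other Spi-2 animals and near Control, and with the Gapdh covariate the change of 1.84 missed the threshold (adjusted p = 0.0569). Gfra1, which binds the neurotrophic factor GDNF, rose by 1.01 ± 0.23 (adjusted p = 0.00419), and its second probe set rose by 0.85. Hspb1, a small heat shock protein that protects injured motor neurons, rose by 0.95 ± 0.21 (adjusted p = 0.00382), with Spi-2 replicate 1 (12.14) inside the Control range of 11.50 to 12.38. Smad1, which carries bone morphogenetic protein signals, rose by 0.85 ± 0.20 (adjusted p = 0.00686) on its brighter probe set, whereas the other one gave -0.16 and was not called.

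Other classic members of this programme did not pass the test. The change was 0.18 for Jun, 0.37 for Stat3, 0.38 for Stmn2, 0.54 for Gal, 1.02 for Sprr1a, 1.42 for Arg1, 1.52 for Ankrd1 and 1.75 for Vip. Of 24 immediate early genes, which respond within minutes to hours to activity or stress, 3 were called higher (Atf3, Myc and Fosl1) and none lower. Egr1 had a change of -1.49 that missed the threshold (adjusted p = 0.226).

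Among 58 genes of the cytoskeleton and its motors 9 were higher and 2 lower. Besides the tubulins, Dpysl4 (0.74, adjusted p = 0.000882) and Dpysl5 (0.65, adjusted p = 0.00803) rose, both members of the collapsin response mediator family that acts on growth cone microtubules. Map1b, a microtubule-associated protein of axons, fell by 0.45 (adjusted p = 0.0121). Rac1, which drives lamellipodia, lay at 7.37, 7.87 and 8.21 in Spi-2 (lowest, median, highest) and at 6.60, 6.63, 6.80 and 7.08 in Control (1.04 ± 0.21, adjusted p = 0.00202). Its relative Cdc42, which drives filopodia, went the other way, with 7.78, 8.04 and 8.29 in Spi-2 and 8.58, 8.79, 8.94 and 8.99 in Control (-0.81 ± 0.18, adjusted p = 0.00411). Neither gene had overlapping groups. Both belong to a separate list of 34 small GTPase genes. There Rac2, Rala, Rhebl1, Ralb and Rhoc were also called higher, and only Cdc42 lower. Rapgef2, an exchange factor for Rap GTPases, fell by 1.36 ± 0.21 (adjusted p = 0.000165).

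Genes known from immune cells were the next group that rose. Of 10 markers of microglia and macrophages 4 were called higher and none lower, with a list median of 0.89. The mean over the list was 6.61, 6.31, 6.35, 7.21, 6.99 and 6.39 in the Spi-2 animals and 5.84, 5.63, 5.66 and 5.56 in Control, so that every Spi-2 animal lay above every Control animal. Spi-2 replicate 4 was the highest. In bulk samples like these, a change in the number of cells of a type in the dissected tissue cannot be told apart from a change of RNA per cell. Whether the dissected neurons or other cells carried these transcripts was not tested. The paper ascribes an early immune response to the motor neurons.

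Csf1r, the receptor on which microglia depend for survival, was at 7.32, 7.64 and 8.61 in Spi-2 (lowest, median, highest) and at 6.35, 5.61, 5.58 and 5.80 in Control (2.02 ± 0.40, adjusted p = 0.00174). Without Spi-2 replicate 4 the change was 1.91 (adjusted p = 0.00489). C1qc, a chain of the first complement component, was at 7.36, 7.90 and 9.05 in Spi-2 and at 6.31, 6.28, 6.27 and 6.20 in Control (1.82 ± 0.44, adjusted p = 0.00823). Neither gene overlapped between groups. Aif1 (Iba1, the common stain for microglia) rose by 1.93 ± 0.52 (adjusted p = 0.0176) and Cd68, a lysosomal protein of phagocytes, by 1.21 ± 0.33 (adjusted p = 0.0199). Without Spi-2 replicate 4 the changes of C1qc, Aif1 and Cd68 were 1.68 (adjusted p = 0.0208), 1.71 (adjusted p = 0.0439) and 0.91 (adjusted p = 0.0497). Aif1 lost its call without Control replicate 4 (1.74, adjusted p = 0.063) and Cd68 without Control replicate 2 (1.20, adjusted p = 0.0512) or replicate 3 (1.18, adjusted p = 0.0588). With the Gapdh covariate only 1 of the 4 genes, Csf1r, was called. C1qa (1.44, adjusted p = 0.0911) missed the threshold. Cd14 (0.56), C1qb (0.37), Cx3cr1 (0.30), Itgam (0.06) and Ptprc (-0.01), the other markers of the list, were not called either. None of the 4 measured lymphocyte markers was called.

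Other genes known from immune cells, named because their changes were among the largest, rose as well. Plac8, a cysteine-rich protein of myeloid cells, read 8.81, 10.00 and 11.17 in Spi-2 (lowest, median, highest) against 7.24, 7.39, 7.36 and 6.98 in Control (2.70 ± 0.61, adjusted p = 0.00486), and without Spi-2 replicate 4 the change was 2.52 (adjusted p = 0.0126). Tspo, an outer mitochondrial membrane protein used as an imaging marker of neuroinflammation, was at 8.92, 7.43, 7.77, 10.39, 9.35 and 7.92 in Spi-2 replicates 1 to 6 and at 6.60, 6.04, 6.52 and 6.07 in Control (2.32 ± 0.40, adjusted p = 0.000516). Spi-2 replicate 4 was the highest animal, and without it the change was 1.97 (adjusted p = 0.000873). P2ry6, a microglial receptor for uridine diphosphate, rose by 1.96 ± 0.39 (adjusted p = 0.00172), with Spi-2 at 7.01 to 8.85 and Control at 5.42 to 6.19, and by 1.77 without Spi-2 replicate 4 (adjusted p = 0.00525).

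Pycard, the adaptor protein of the inflammasome, lay at 7.14, 7.74 and 9.68 in Spi-2 (lowest, median, highest) and at 6.01, 5.99, 5.93 and 5.66 in Control (2.14 ± 0.42, adjusted p = 0.00143), and Casp1, a protease of the same complex, rose by 0.98 ± 0.25 (adjusted p = 0.0121). Without Spi-2 replicate 4, the highest animal for both, the changes were 1.81 (adjusted p = 0.00354) and 0.77 (adjusted p = 0.0298). Serpinb1a, an inhibitor of neutrophil proteases, had a change of 2.07 ± 0.53 (adjusted p = 0.0121), but a second, dimmer probe set of the gene gave -0.06. Its change was 1.86 without Spi-2 replicate 4 (adjusted p = 0.0301), and its call was lost with the Gapdh covariate (1.74, adjusted p = 0.0607).

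Secreted signals and matrix enzymes were a smaller share. Of 64 cytokines and cytokine receptors 7 were higher and none lower (median 0.05), of 43 chemokines and their receptors 3 were higher (median 0.14) and of 76 matrix genes 6 were higher and 1 lower (median 0.07). Ccl2, which recruits monocytes, was at 9.11, 6.67, 7.20, 10.51, 10.37 and 9.05 in Spi-2 and at 5.93, 6.08, 6.30 and 6.15 in Control (2.71 ± 0.75, adjusted p = 0.0205). The Spi-2 animals spread over almost 4 log2 units, and the call was lost without Spi-2 replicate 4 (2.37, adjusted p = 0.0511), Spi-2 replicate 5 (2.40, adjusted p = 0.0544), Control replicate 1 (2.64, adjusted p = 0.0555) or Control replicate 2 (2.69, adjusted p = 0.0513).

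Mmp3, the matrix protease stromelysin, was steadier, with 5.83, 7.20 and 8.11 in Spi-2 (lowest, median, highest) and 4.82, 5.49, 4.76 and 5.51 in Control (1.92 ± 0.41, adjusted p = 0.00336), and kept a change of 1.92 without Spi-2 replicate 4 (adjusted p = 0.00601). Timp1, an inhibitor of matrix proteases, reached 9.80 in Spi-2 replicate 4 against 5.69 to 8.36 in the other Spi-2 animals and 5.50 to 5.66 in Control (1.80 ± 0.50, adjusted p = 0.0199). Without Spi-2 replicate 4 the change was 1.32 (adjusted p = 0.0463). It lost its call without Control replicate 3 (adjusted p = 0.0575) or Spi-2 replicate 5 (adjusted p = 0.0527), with the Gapdh covariate (0.0623), with the arrays of the present study alone (0.0601) or with those of the 2 groups alone (0.0916). Il33, an alarmin held in the nuclei of oligodendrocytes and astrocytes, rose by 1.82 ± 0.50 (adjusted p = 0.0199), with Spi-2 replicate 2 (5.58) under the whole Control range of 5.67 to 6.85. Its second probe set rose by 1.61. The first lost its call without Control replicate 1 (adjusted p = 0.0679), 2 (0.0511) or 3 (0.0675) or Spi-2 replicate 5 (0.0548), with the Gapdh covariate (0.05), with the replicate number as a block (0.0549) or with the arrays of the 2 groups alone (0.0586). Its change was 1.80 without Spi-2 replicate 4 (adjusted p = 0.0326).

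**Figure D3:**
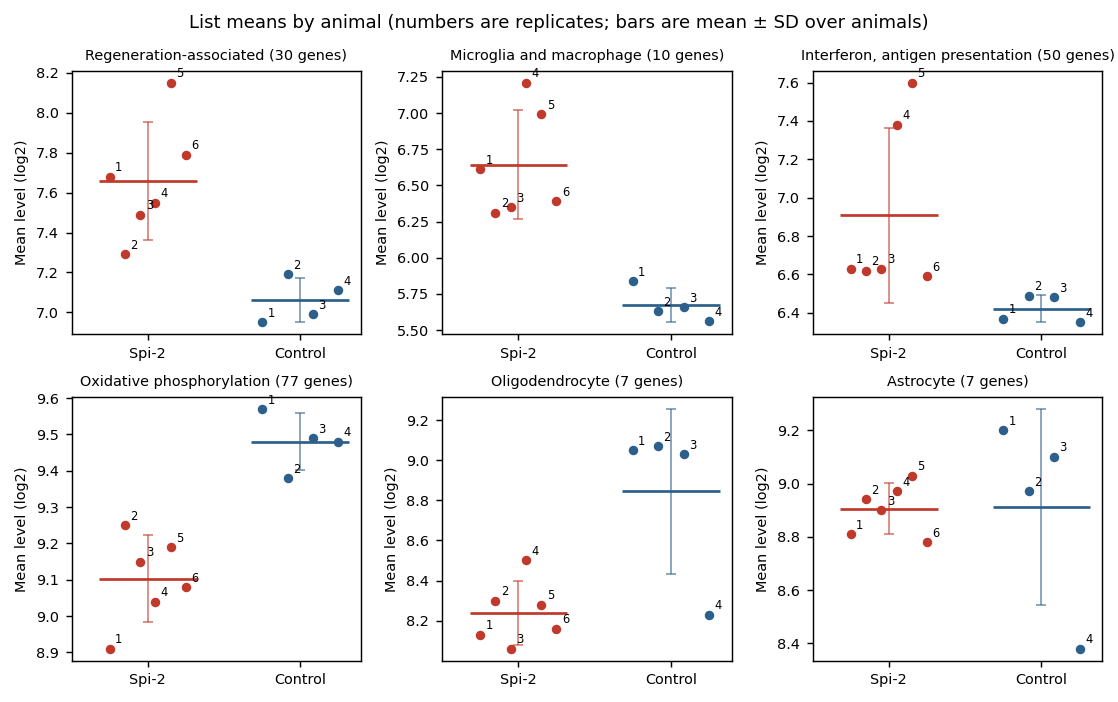
Mean log2 level (y axis) over all measured genes of 6 lists in each Spi-2 animal (red) and each Control animal (blue), numbered by replicate, with the group mean and SD as bars. Spi-2 replicates 4 and 5 are highest for the microglia and the interferon lists, and Control replicate 4 is lowest for the oligodendrocyte and astrocyte lists.

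The interferon and antigen presentation list, whose genes answer to interferons or load peptides on MHC molecules, had 14 of 50 members called higher and none lower, with a median of 0.42. Its mean by animal was 6.63, 6.62, 6.63, 7.38, 7.60 and 6.59 in Spi-2 and 6.37, 6.49, 6.48 and 6.35 in Control. No Control animal reached a Spi-2 animal, but Spi-2 replicates 4 and 5 stood well above the other 4. The count of called members was sensitive to single animals: it was 6 without Spi-2 replicate 4, 5 without Spi-2 replicate 5, and 7, 8, 6 and 5 without Control replicates 1, 2, 3 and 4. With the Gapdh covariate it was 5.

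Ifitm3, a membrane protein that blocks viral entry, rose most firmly. Its promoter and that of Psmb8, an interferon-inducible proteasome subunit, are printed because both hold the core of the interferon-stimulated response element, here taken as GAAANNGAA on either strand. The sequences come from RefSeq on the rat build GRCr8 and run from 250 bases before to 50 bases after the annotated start in the direction of transcription, with the match in capitals. Ifitm3 spans chr1:205541709-205542008 on the minus strand and its match begins at base -44, while Psmb8 spans chr20:4656982-4657281 on the minus strand and its match, on the opposite strand to the gene, begins at base -3.
Ifitm3: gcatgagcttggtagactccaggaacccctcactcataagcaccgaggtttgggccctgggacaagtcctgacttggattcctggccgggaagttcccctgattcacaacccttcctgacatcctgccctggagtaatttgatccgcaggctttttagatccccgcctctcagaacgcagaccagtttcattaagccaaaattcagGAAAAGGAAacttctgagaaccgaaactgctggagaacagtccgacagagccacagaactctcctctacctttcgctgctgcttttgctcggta
Psmb8: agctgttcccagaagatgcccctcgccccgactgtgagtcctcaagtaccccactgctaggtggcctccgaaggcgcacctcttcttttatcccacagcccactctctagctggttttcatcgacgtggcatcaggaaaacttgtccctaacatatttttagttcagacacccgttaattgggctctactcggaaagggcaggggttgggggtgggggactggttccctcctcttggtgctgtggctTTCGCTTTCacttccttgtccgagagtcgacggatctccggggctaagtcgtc
Of the interferon list, 42 genes had promoters in the RefSeq table, some of them more than 1, and 19 of these 44 promoters held this motif (43.2%), and so did 4 of the 13 promoters of called members (30.8%), against 7.12% of the promoters of all measured genes and 9.71% of all promoters in the table. A match of letters is not a bound site.

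Ifitm3 was at 7.39, 6.65, 7.64, 8.50, 7.84 and 7.17 in Spi-2 and at 5.58, 6.04, 5.93 and 5.13 in Control (1.86 ± 0.34, adjusted p = 0.000756). The groups did not overlap, and without Spi-2 replicate 4 the change was 1.67 (adjusted p = 0.00224). Irf3, a transcription factor that starts the interferon response, was at 9.37, 9.88 and 10.28 in Spi-2 (lowest, median, highest) and at 8.64, 8.74, 8.45 and 8.95 in Control (1.11 ± 0.21, adjusted p = 0.000947). It too had no overlap and was not led by Spi-2 replicate 4, with a change of 1.10 in its absence. Irf5, a related factor of myeloid cells, rose by 0.79 ± 0.19 (adjusted p = 0.00639), and by 0.70 without Spi-2 replicate 4 (adjusted p = 0.0185).

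The 3 catalytic subunits that replace the standard ones in the immunoproteasome were all called higher, a subset picked after the values were seen. Psmb8 (0.87 ± 0.28, adjusted p = 0.0496), Psmb9 (0.89 ± 0.26, adjusted p = 0.0299) and Psmb10 (0.50 ± 0.15, adjusted p = 0.0277) were highest in Spi-2 replicates 4 and 5. For Psmb9 these were 7.75 and 7.85, whereas the other 4 Spi-2 animals had 6.08 to 6.37 and Control 5.79 to 5.91. Without Spi-2 replicate 4 none of the 3 was called (adjusted p = 0.109, 0.0798 and 0.0677, in the order above), and likewise without Spi-2 replicate 5 (adjusted p = 0.12, 0.0858 and 0.0782). Psmb8 was also lost without Spi-2 replicate 1 (0.0965) and Control replicates 2 (0.134), 3 (0.136) and 4 (0.108), Psmb9 without any 1 of the 4 Control animals (0.0607 to 0.0764), and Psmb10 without Control replicate 1 (0.15).

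Mx1, an interferon-induced antiviral GTPase, lay at 9.44 in Spi-2 replicate 5 and at 5.31 to 6.62 in the other Spi-2 animals, against 4.50 to 5.44 in Control (1.51 ± 0.45, adjusted p = 0.0297). Without Spi-2 replicate 5 the change was 0.91 (adjusted p = 0.0215). It was not called without Spi-2 replicate 4 (adjusted p = 0.0513) or without Control replicate 1 (0.0776), 2 (0.066) or 4 (0.0903). Ifi30, a thiol reductase of antigen-processing lysosomes, rose by 1.22 ± 0.31 (adjusted p = 0.012), with no overlap between 7.47 to 9.38 in Spi-2 and 6.31 to 7.06 in Control, and lost its call without Control replicate 4 (1.07, adjusted p = 0.052) or with the Gapdh covariate (0.98, adjusted p = 0.0676). Its change was 0.95 without Spi-2 replicate 4 (adjusted p = 0.0287).

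Glial genes moved both ways. Gfap, the astrocyte filament protein that marks gliosis, was at 11.17, 11.23 and 11.56 in Spi-2 (lowest, median, highest) and at 9.13, 8.77, 9.52 and 8.06 in Control (2.45 ± 0.42, adjusted p = 0.000461). The Spi-2 animals lay close together and all of them above the highest Control animal. The other 6 astrocyte markers were not called higher. Aldoc, the brain aldolase of astrocytes, had a median of 11.34 and a highest value of 11.81 in Spi-2 against 12.54, 12.28, 12.16 and 12.17 in Control (-0.91 ± 0.18, adjusted p = 0.00182), and Aqp4, Gja1, Slc1a2 and Slc1a3 had changes of -0.08, -0.43, -0.19 and -0.35 that missed the threshold. The list mean was 8.78 to 9.03 in Spi-2 and 9.20, 8.97, 9.10 and 8.38 in Control.

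All 7 oligodendrocyte markers had lower means in Spi-2, but only Mbp, the major myelin basic protein, was called. It was at 8.19, 8.52 and 8.77 in Spi-2 (lowest, median, highest) and at 11.55, 10.58, 10.98 and 9.49 in Control (-2.14 ± 0.31, adjusted p = 6.12e-05). The groups were apart, with Control replicate 4 the nearest, and without that animal the change was -2.53 (adjusted p = 6.4e-06). A second Mbp probe set was lower by 0.62 and another, at -0.35, was not called, so that the size depends on the probe set. The list mean was 8.13, 8.30, 8.06, 8.50, 8.28 and 8.16 in Spi-2 and 9.05, 9.07, 9.03 and 8.23 in Control.

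Gpr37, a receptor of maturing oligodendrocytes, was at 7.28, 7.61 and 7.87 in Spi-2 and at 8.47 to 9.51 in the 4 Control animals (-1.43 ± 0.24, adjusted p = 0.00037). Lpar1, a lysophosphatidic acid receptor, was at 6.25, 7.08 and 7.35 in Spi-2 and at 9.11, 8.53, 8.68 and 7.72 in Control (-1.57 ± 0.24, adjusted p = 0.000124), and its second probe set fell by 0.84. In both, Control replicate 4 was the lowest Control animal and still above every Spi-2 animal. Sparcl1, an astrocyte-secreted protein of synapse formation, fell by 1.51 ± 0.32 (adjusted p = 0.00287).

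Markers of interneurons, whose terminals and somata lie close to motor neurons, had lower means in Spi-2, and their calls depended on single animals. Slc32a1, the vesicular transporter of GABA and glycine, had a change of -1.35 ± 0.42 (adjusted p = 0.0372), and Slc17a6, the vesicular glutamate transporter 2, one of -1.44 ± 0.44 (adjusted p = 0.0342). Both had overlapping groups. The other markers, Gad1 (-0.91), Slc17a7 (-0.28), Gad2 (-0.15) and Slc6a5 (-0.09), were not called. Slc32a1 lost its call without any of 7 animals, with a change of -0.81 (adjusted p = 0.249) without Control replicate 1, and Slc17a6 without any of 6, with -1.21 (adjusted p = 0.137) without that animal. Penk, the precursor of enkephalins and not one of these markers, fell to 6.31, 6.50 and 6.69 in Spi-2 (lowest, median, highest), against 9.14, 9.12, 8.89 and 6.67 in Control (-1.96 ± 0.38, adjusted p = 0.00135). Control replicate 4 was alone at the Spi-2 level.

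Genes of mitochondrial energy metabolism fell. Of 77 measured subunits and assembly factors of oxidative phosphorylation, which passes electrons along complexes I to IV and makes ATP in complex V, 30 were called lower and none higher, and 66 had a negative change, with a median of -0.43. The list mean by animal was 8.91, 9.25, 9.15, 9.04, 9.19 and 9.08 in Spi-2 and 9.57, 9.38, 9.49 and 9.48 in Control. Every Spi-2 animal was below every Control animal, the nearest being Spi-2 replicate 2 and Control replicate 2. With the Gapdh covariate 18 of the 77 were called lower.

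The counts by complex ran from 1 of 17 to 19 of 36. In complex I, which oxidises NADH, 19 of 36 genes were lower (median -0.48). In complex II, succinate dehydrogenase, 2 of 4 were lower (median -0.56), in complex III 1 of 6 (median -0.33) and in complex V 7 of 14 (median -0.55). In complex IV, cytochrome c oxidase, only Cox7b of 17 genes was called, with a list median of -0.13. Whether the complexes differ from each other was not tested.

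**Figure D4:**
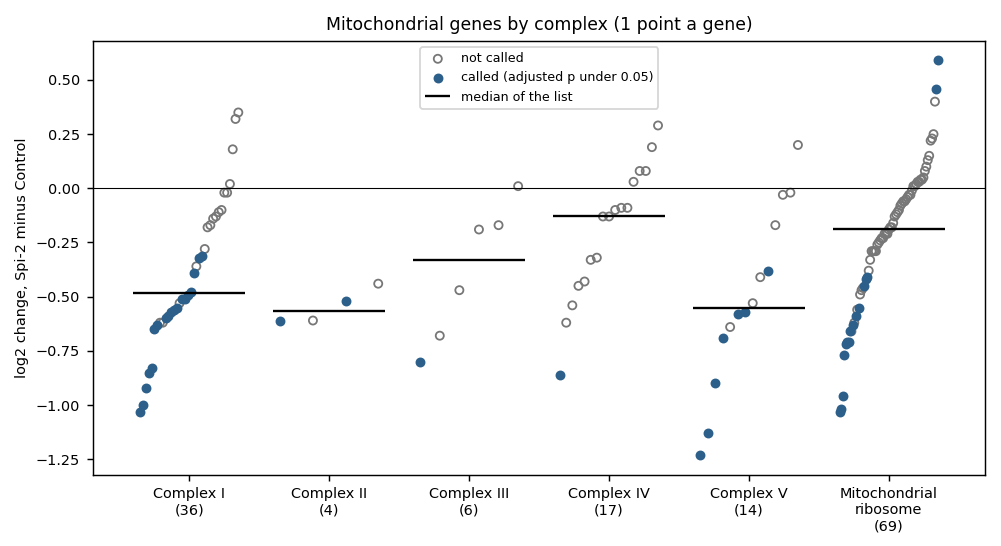
Log2 change, Spi-2 minus Control (y axis), of each measured gene of the 5 respiratory complexes and the mitochondrial ribosome (number of genes in brackets), with called genes as filled points and the median of each list as a line. Complex I has 19 of 36 and complex IV 1 of 17 genes called, all of them lower.

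Ndufv2, an iron-sulphur subunit of the NADH-oxidising arm of complex I, was at 9.03, 9.21 and 9.82 in Spi-2 (lowest, median, highest) and at 10.64, 10.00, 10.30 and 10.40 in Control (-1.03 ± 0.19, adjusted p = 0.000756). Ndufb9, of its membrane arm, was at 10.26, 10.43 and 10.75 in Spi-2 and at 11.61, 11.03, 11.31 and 11.27 in Control (-0.85 ± 0.14, adjusted p = 0.000271). Neither overlapped between groups. Of the 10 measured Ndufb genes 8 were called lower (median -0.56), a subset looked at after the values were seen. In complex III Uqcrfs1, the Rieske iron-sulphur protein, fell by 0.80 ± 0.18 (adjusted p = 0.00502).

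Atp5pb, of the peripheral stalk of the ATP synthase, was at 6.95, 7.20 and 7.90 in Spi-2 and at 8.66, 8.47, 8.37 and 8.56 in Control (-1.23 ± 0.25, adjusted p = 0.00203). Atp5pd, of the same stalk, fell by 0.90 ± 0.17 (adjusted p = 0.000862), with Spi-2 at 7.83 to 8.59 and Control at 8.80 to 9.31. Neither overlapped between groups.

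A gene of complex I assembly fell too. Ndufaf5 encodes a mitochondrial enzyme that modifies a complex I subunit during assembly, and its promoter is printed because it holds the motif of NRF1, a transcription factor of nuclear genes for the respiratory chain, taken as GCATGCGC on either strand. It spans chr3:147961362-147961661 on the plus strand of GRCr8 (RefSeq), with overlapping matches on both strands, in capitals, that begin at bases -15 and -13 from the start.
Ndufaf5: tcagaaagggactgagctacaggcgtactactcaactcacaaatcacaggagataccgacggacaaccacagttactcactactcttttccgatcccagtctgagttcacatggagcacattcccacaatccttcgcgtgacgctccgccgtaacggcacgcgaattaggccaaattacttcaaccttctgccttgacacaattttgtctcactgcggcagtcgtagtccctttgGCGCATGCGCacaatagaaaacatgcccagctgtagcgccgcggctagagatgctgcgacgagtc
The motif was in 7 of 70 oxidative phosphorylation promoters (10%) and in 3 of the 28 of called members (10.7%), against 4.51% of the promoters of all measured genes and 2.47% of all promoters in the table. Ndufaf5 itself was at 7.91, 8.14 and 8.17 in Spi-2 and at 8.71, 8.66, 8.97 and 8.58 in Control (-0.65 ± 0.12, adjusted p = 0.000622), with no overlap.

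The steps that feed the chain fell in part. Of 24 genes of the tricarboxylic acid cycle and pyruvate oxidation 7 were called lower and none higher (median -0.28), a count that was 4 without Control replicate 1 and also with the Gapdh covariate. Suclg1, Sucla2 and Suclg2, which together make up succinyl-CoA ligase in its ATP- and GTP-forming versions, fell by 0.93 (adjusted p = 0.000271), 0.70 (adjusted p = 0.00996) and 0.52 (adjusted p = 0.0201). By contrast glycolysis, with 2 of 22 genes lower and a median of 0.03, was near the background of all genes.

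Mitochondrial ribosomal proteins, which are made in the cytosol and translate the subunits encoded in mitochondrial DNA, had 14 of 69 members lower and 2 higher (median -0.19). The count was 7 without Control replicate 1, 8 without Control replicate 3, 7 without Control replicate 4 and 4 with the Gapdh covariate. Mrpl13 held in all of these, with 7.85, 8.03 and 8.47 in Spi-2 (lowest, median, highest) and 9.05, 8.97, 9.18 and 9.38 in Control (-1.02 ± 0.15, adjusted p = 5.39e-05). Mrpl27 (-1.03 ± 0.17, adjusted p = 0.000412) and Mrps35 (-0.96 ± 0.18, adjusted p = 0.000947) fell by as much. None of the 3 overlapped between groups.

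Among 54 import components and carriers 8 were lower and 2 higher. Vdac3, a pore of the outer membrane, was at 10.64, 11.10 and 11.20 in Spi-2 and at 11.99, 11.79, 11.78 and 12.13 in Control (-0.92 ± 0.16, adjusted p = 0.000574). Slc25a46, an outer membrane protein of mitochondrial dynamics, fell by 0.93 ± 0.17 (adjusted p = 0.000705), though its other probe set gave -0.18. The matrix chaperonin pair Hspe1 (-0.82 ± 0.15, adjusted p = 0.000692) and Hspd1 (-0.75 ± 0.19, adjusted p = 0.012) fell together. Of 46 antioxidant genes 3 fell and none rose, close to the background of all genes. Among the 3 was Sod1, the cytosolic superoxide dismutase whose mutations cause a form of amyotrophic lateral sclerosis. It was at 10.66, 10.96 and 11.52 in Spi-2 and at 12.13, 11.83, 12.00 and 12.08 in Control (-0.99 ± 0.20, adjusted p = 0.00215), with no overlap.

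Of 70 chaperones, which help proteins to fold, 14 were lower, and Hspb1 alone was higher (list median -0.14). The list mean was 7.52 to 7.83 in Spi-2 and 7.86 to 8.01 in Control. The chaperones of newly made actin and tubulin were picked out after the values were seen: 3 of 4 prefoldin subunits (median -0.81) and 3 of 8 subunits of the chaperonin TRiC (median -0.50) were lower. Pfdn6 was at 6.65, 7.17 and 8.01 in Spi-2 (lowest, median, highest) and at 8.45, 8.36, 8.32 and 9.13 in Control (-1.34 ± 0.25, adjusted p = 0.000977), Pfdn5 fell by 0.98 ± 0.15 (adjusted p = 0.000116), and Tcp1, the alpha subunit of TRiC, by 1.03 ± 0.19 (adjusted p = 0.000756). These 3 genes had no overlap, whereas Tubb2b and Tubb6, described above, rose.

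Hsph1, a nucleotide exchange factor for Hsp70, fell by 0.84 ± 0.15 (adjusted p = 0.00057), and Hsp90b1, the Hsp90 of the endoplasmic reticulum, by 0.79 (adjusted p = 0.0119). The Hsph1 probe set was dim, at 4.56 to 5.16 in Spi-2 and 5.52 to 5.92 in Control, below the medians of the arrays.

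The proteasome list split. Of 40 genes 7 were lower and 4 higher, and of the 33 named Psma, Psmb, Psmc, Psmd or Psmg, with the 3 immunoproteasome subunits set aside, 7 were lower and 1 higher (median -0.15). The other 4, Psme1, Psme2, Psme4 and Psmf1, were not called. Psmc5, an ATPase of the regulatory particle, was at 7.82, 8.00 and 8.67 in Spi-2 (lowest, median, highest) and at 9.61, 9.38, 9.26 and 9.51 in Control (-1.31 ± 0.16, adjusted p = 4.85e-06). Psmc1, a neighbouring ATPase, fell by 0.93 ± 0.20 (adjusted p = 0.00357), Psmd4, a ubiquitin receptor, by 0.78 ± 0.17 (adjusted p = 0.00411) and Psmg1, an assembly chaperone, by 0.95 ± 0.19 (adjusted p = 0.00176). All 4 had every Spi-2 animal below every Control animal.

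Usp7, a deubiquitinase that stabilises p53 and its ligase, had a change of 1.45 ± 0.23 (adjusted p = 0.000175) on 1 probe set, while 3 others for the gene gave 0.01 to 0.22 and were not called. Fbxo33, a substrate receptor of ubiquitin ligases, fell by 1.47 ± 0.27 (adjusted p = 0.000749), and its second probe set by 0.97, while another gave -0.33 and was not called. Over the 66 ubiquitin conjugation genes 5 were lower and 3 higher, close to the background.

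In the V-ATPase and lysosome list, of 45 genes 9 were lower and 2 higher (median 0.04), and 7 of the 9 encode the proton pump (V-ATPase) or its accessory proteins, out of 20 such genes measured, a subset picked after the values were seen. Atp6v1b2, the neuronal form of a catalytic-head subunit, was at 9.19, 9.74 and 10.24 in Spi-2 and at 10.75, 10.35, 10.39 and 10.70 in Control (-0.86 ± 0.22, adjusted p = 0.0124), with a second probe set at -0.50. Atp6v1d (-0.53 ± 0.13, adjusted p = 0.00803), Atp6v1g1 (-0.65 ± 0.16, adjusted p = 0.0103) and Atp6ap1 (-0.65 ± 0.14, adjusted p = 0.00309) fell by less. None of the 4 overlapped between groups. Psap, the precursor of sphingolipid activators, fell by 0.86 ± 0.17 (adjusted p = 0.00174). The 2 genes that rose were the cathepsins Ctsb (0.65 ± 0.15, adjusted p = 0.0063) and Ctsc, lysosomal proteases.

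Genes of RNA and protein synthesis were mixed. Of 31 nucleolar genes 5 were lower and 1 higher (median -0.01). Nop53, a factor of large ribosomal subunit assembly, was at 6.67, 7.22 and 7.52 in Spi-2 (lowest, median, highest) and at 8.78, 8.27, 7.93 and 8.67 in Control (-1.29 ± 0.22, adjusted p = 0.000461), and Gnl3, nucleostemin, fell by 0.80 ± 0.19 (adjusted p = 0.00724). Cytosolic ribosomal proteins (2 of 39 higher, 3 lower), translation factors (3 of 54 higher, 3 lower) and aminoacyl-tRNA synthetases (none of 27 called) stayed near the background.

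Single translation genes still moved far. Eif4a2, an RNA helicase of initiation that is abundant in neurons, was at 7.78, 8.19 and 8.87 in Spi-2 and at 9.50, 9.75, 10.04 and 9.33 in Control (-1.39 ± 0.26, adjusted p = 0.000756). Pdcd4, which inhibits that helicase family, fell as well (-1.03 ± 0.19, adjusted p = 0.000734), and its second probe set fell by 1.22. The groups did not overlap in either gene.

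Splicing factors leaned upward, with 7 of 58 higher and 2 lower. U2af2, which binds the polypyrimidine tract of introns, rose by 0.85 ± 0.14 (adjusted p = 0.000271) and Hnrnpa1 by 0.97 ± 0.24 (adjusted p = 0.00914). Their other probe sets gave -0.07 and -0.23 and were not called.

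Of the 31 transcription factors followed in the study 7 were lower and 3 higher. The study chose them as changed over time on these same arrays, so their count is not independent evidence. Nkx6-2, a homeobox factor of oligodendrocytes and ventral cord neurons, fell by 0.97 ± 0.20 (adjusted p = 0.00194), with 5.81 to 6.09 in 5 Spi-2 animals, 7.08 in Spi-2 replicate 1 and 6.82 to 7.22 in Control. Pias2, a SUMO ligase that restrains STAT signalling, was at 8.37, 8.62 and 8.75 in Spi-2 and at 9.87, 9.46, 9.60 and 9.20 in Control (-0.96 ± 0.17, adjusted p = 0.000608). Its groups did not overlap.

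Channels and receptors that set excitability were called at about the background rate. The counts were 1 higher and 2 lower of 37 voltage-gated potassium channel genes, 1 and 0 of 9 sodium channel genes, 0 and 2 of 23 calcium channel genes, 0 and 3 of 26 chloride channels and transporters, 0 and 1 of 34 glutamate receptor genes, 0 and 2 of 24 GABA and glycine receptor genes, and 1 and 2 of 54 monoamine and acetylcholine receptor genes. Single members still changed. Slc12a2, the cotransporter NKCC1 that brings chloride into cells, was at 8.32, 8.49 and 9.31 in Spi-2 (lowest, median, highest) and at 10.18, 9.97, 10.09 and 9.33 in Control (-1.25 ± 0.24, adjusted p = 0.00136), with the highest Spi-2 animal, replicate 4, just under Control replicate 4. Gabbr2, a subunit of the GABA-B receptor, fell by 0.89 ± 0.17 (adjusted p = 0.00108), although its other probe set gave 0.04.

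Cacng2, the auxiliary protein stargazin of AMPA receptors, fell by 1.47 ± 0.40 (adjusted p = 0.0198), with Spi-2 at 6.35 to 7.94 and Control at 8.24 to 8.74, but was not called without Control replicate 2 (-1.37, adjusted p = 0.0648). Scn3b, a beta subunit of sodium channels, was at 8.26, 8.93 and 10.30 in Spi-2 and at 8.02, 7.74, 7.57 and 7.39 in Control (1.38 ± 0.42, adjusted p = 0.0326). It had no overlap, yet the call was lost without Control replicate 2 (adjusted p = 0.0676), 3 (0.0873) or 4 (0.0901) or without Spi-2 replicate 4 (0.0631), 5 (0.0919) or 6 (0.0553).

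Neuropeptide genes went in opposite directions. Of 37 neuropeptide and granin genes 2 were higher and 4 lower. Uts2, urotensin II, a peptide made by motor neurons of the cord, was at 11.77, 12.19 and 12.87 in Spi-2 (lowest, median, highest) and at 10.50, 11.22, 11.64 and 11.65 in Control (1.06 ± 0.19, adjusted p = 0.000756). Vgf, a secreted neurotrophin-inducible protein, rose by 1.08 (adjusted p = 0.0303). The granins Scg2 (-0.94, adjusted p = 0.027), Chgb (-0.80, adjusted p = 0.0314) and Scg5 (-0.55, adjusted p = 0.0337), which pack peptides into dense-core vesicles, fell.

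Other neuronal genes with large decreases were Fstl5, a secreted calcium-binding protein, with 6.68, 7.22 and 7.98 in Spi-2 and 8.56, 9.02, 8.86 and 9.01 in Control (-1.63 ± 0.28, adjusted p = 0.000516), and Vsnl1, the calcium sensor visinin-like 1, which fell by 2.18 ± 0.38 (adjusted p = 0.000574), the largest decrease of the comparison. Vsnl1 was at 6.69 to 8.31 in Spi-2 and at 10.32, 9.95, 9.44 and 8.08 in Control, so that only Control replicate 4 fell within the Spi-2 range, and its second probe set was lower by 1.11. Fstl5 did not overlap between groups. Sncg, gamma-synuclein of motor and sensory neurons, rose by 0.92 ± 0.20 (adjusted p = 0.00384).

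Of 39 genes of cell death 4 were called higher and 1 lower. Bad, a pro-apoptotic member of the Bcl-2 family, had a small but steady increase, with 8.34, 8.57 and 8.68 in Spi-2 (lowest, median, highest) and 8.26, 7.77, 7.78 and 8.02 in Control (0.60 ± 0.09, adjusted p = 0.000195). S100a10, an annexin A2 partner that carries channels and receptors to the membrane, rose in the same way by 0.63 ± 0.12 (adjusted p = 0.000954). Both kept their groups apart.

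Against day 7 no probe set passed the test. None of 12913 was called between Spi-2 and Spi-7 in limma (0%), and 460 had an unadjusted p under 0.05 (3.56%). The smallest adjusted p was 0.999. The levels of later groups are set out below without a test, since all of them share the Control animals and those of days 21 and 60 were hybridised in another study, so that time and study cannot be told apart there.

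Atf3 averaged 6.47 ± 1.20 in Control, 10.43 ± 1.44 at day 2, 9.65 ± 1.50 by day 7, 8.42 ± 0.94 in Spi-21 and 8.30 ± 1.02 in Spi-60 animals (SD, n = 4, 6, 5, 8 and 8). Among immune genes, Tspo averaged 6.31 ± 0.29, 8.63 ± 1.13, 7.32 ± 0.54, 7.01 ± 0.50 and 7.16 ± 0.56 at these times. Both had their highest mean at day 2. The genes followed here were named by their values at day 2, a choice that favours an extreme at that time. Other named genes had a higher mean at day 7 than at day 2. Among them were Mmp3 (7.52 ± 0.77 against 7.06 ± 0.87) and Ngfr (8.50 ± 1.12 against 8.20 ± 1.08).

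Gfap had means of 8.87 ± 0.62, 11.32 ± 0.17, 10.21 ± 0.61, 10.21 ± 1.00 and 10.70 ± 0.65, also highest at day 2, and Mbp 10.65 ± 0.87, 8.50 ± 0.24, 8.99 ± 0.43, 9.37 ± 0.46 and 9.93 ± 0.53, lowest at day 2. Uts2 was at 11.25 ± 0.54 at day 0 and between 12.23 and 12.43 at all 4 later times. Of the genes that fell, Psmc5 averaged 9.44 ± 0.15, 8.13 ± 0.32, 8.38 ± 0.12, 8.69 ± 0.27 and 8.67 ± 0.25, and Pfdn6 8.56 ± 0.38, 7.23 ± 0.46, 7.41 ± 0.30, 8.33 ± 0.49 and 7.98 ± 0.38. The means of both were lowest at day 2.

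**Figure D5:**
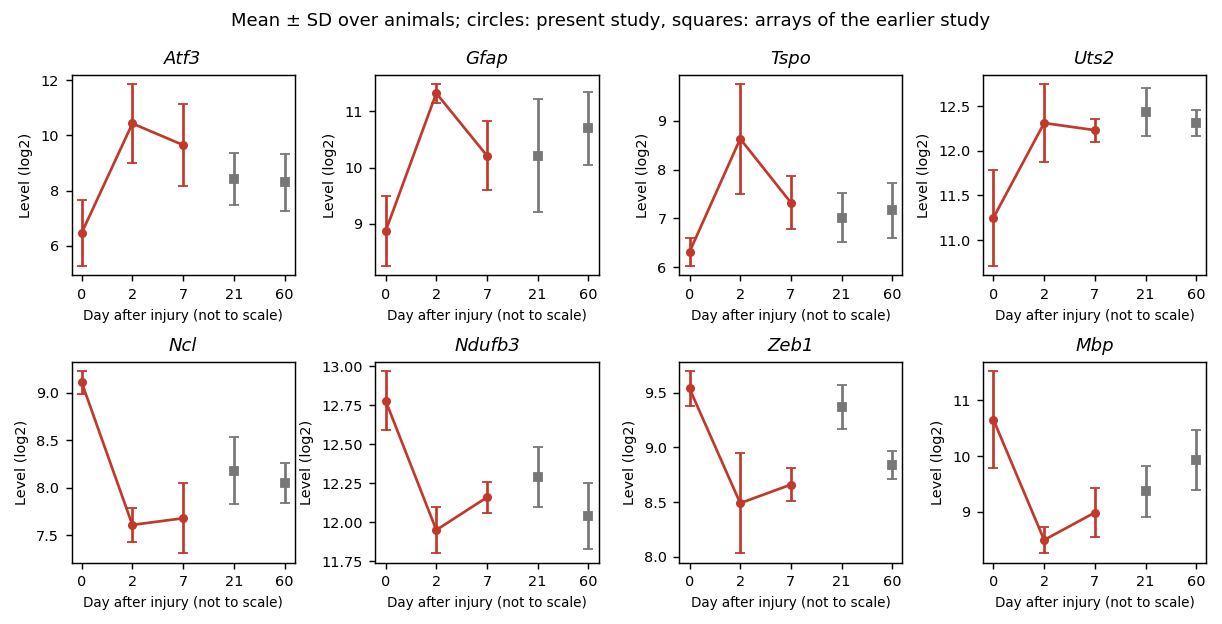
Mean log2 level (y axis) of 8 genes in Control (day 0), Spi-2, Spi-7, Spi-21 and Spi-60 animals (x axis, days after transection, evenly spaced and not to scale), with bars for the SD over 4, 6, 5, 8 and 8 animals; circles mark the present study and squares the arrays of the earlier study. Atf3, Gfap and Tspo have their highest and Mbp its lowest mean at day 2, while Uts2 stays between 12.23 and 12.43 from day 2 on. These genes were named by their values at day 2, a choice that favours an extreme at that time.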

How the data were processed

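The authors deposited log2 expression values of GeneChip Rat Genome arrays, 1 array per animal, after RMA with background compensation and quantile normalization, each applied again in a further round; 31 arrays and 12913 probe sets other than the Affymetrix controls were used, and the values were taken as deposited. Per-array depth does not apply to arrays, so their number limits the precision.

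Groups came from the labelled injury stage. limma (version 3.58.1, R 4.3.3) was fitted with 5 group means over 31 arrays and the contrasts Spi-2 minus Control and Spi-2 minus Spi-7 were moderated and adjusted by Benjamini-Hochberg over 12913 probe sets, with 0.05 as the threshold. Lists and figures were made in Python 3.11.15 (pandas 2.3.3, numpy 2.4.6, scipy 1.17.1). Of the probe sets, 11880 matched 1 gene symbol, 320 several and 713 none in the platform annotation; a gene was read from its brightest probe set, which left 9769 genes. Changes of 0.5, 1 and 2 set in simulated data for Spi-2 against Control over 12913 probe sets were recovered in 43.3%, 92.5% and 98.5% of cases. These shares are over all probe sets and do not hold for each gene. Vip, with a change of 1.75 ± 0.75, was not called.

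Genes were named by these rules: the 15 largest changes each way among called probe sets without overlap, up to 6 members of each of 65 lists by smallest p, and the cell type markers. The lists, rules and members were chosen with earlier results of these data known. Subsets said to be looked at after the values were seen fall outside the rules, as do genes named as list members without a call. Animals left out in turn, only the 2 groups or the arrays of the present study, a further quantile normalization, removal of the dimmest 25% of probe sets, array weights, a variance trend, the Gapdh 3′ minus 5′ difference as a covariate, the replicate number as a block and another choice of probe set were tried as alternatives. Promoters were matched by symbol for 8069 of the 9769 genes.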

Additional observations from a re-analysis of the deposited data

Results flagged for a closer look

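Within a group of 4 or 6 animals, 22 of 256 sets of values (8.59%) had 1 animal far from the others by Dixon's test, where chance alone gives about 1 in 20. Spi-2 replicate 4 was highest for the list means of fibroblast and pericyte (9.33, others 5.35 to 5.75), neutrophil (7.67, others 5.01 to 5.41), endothelial (7.57, others 5.79 to 6.08), Schwann cell (9.24, others 7.97 to 8.41) and erythrocyte genes (7.41, others 6.08 to 6.45). Control replicate 3 was highest for the fibroblast and pericyte genes at 6.15 (others 5.36).

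Spi-2 replicate 1 was lowest for Hspb1 (12.14), Prph (11.83) and Gabbr2 (7.04) and highest for U2af2 (10.12) and Nkx6-2 (7.08). Spi-2 replicate 2 was lowest for Ngfr (6.05) and Il33 (5.58) and highest for Slc32a1 (7.87), and Spi-2 replicate 5 was highest for Mx1 (9.44). Control replicate 4 was lowest for P2ry6 (5.42), Penk (6.67) and the oligodendrocyte list mean (8.23). Control replicate 1 was lowest for Psmb10 (6.56) and highest for Fkbp2 (10.44), an isomerase of the endoplasmic reticulum whose change was -1.54 on this probe set and -0.12 on a brighter one, and Control replicate 2 was lowest for Irf5 (5.71) and Nbea (9.21), a trafficking protein of synapses that fell by 1.58.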

How the results depend on the processing

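All 1146 called probe sets kept their sign under every alternative, and 426 kept their call under all those in which they were tested. Array weights gave 2275 calls (1055 higher, 1220 lower) and the Gapdh covariate 768, with 317 higher, and leaving out 1 animal gave 675 to 1389. The members of gene lists called, 264 in all, were 447 with array weights, 160 with the Gapdh covariate and 166 to 309 without 1 animal. With the covariate the microglia list had 1 call, the interferon list 5, oxidative phosphorylation 18, the tricarboxylic acid cycle 4 and the mitochondrial ribosome 4. The interferon list had 6 calls in a fit of the arrays of the 2 groups alone and 5 to 15 without 1 animal. Without 1 animal the tricarboxylic acid cycle had 4 to 8 calls and the mitochondrial ribosome 7 to 15. The regeneration, chaperone and V-ATPase and lysosome lists stayed within 1.5 times their counts under every alternative, with 6 to 7, 12 to 18 and 6 to 9 calls without 1 animal. The calls of 111 genes were checked singly. These include genes not described above, and some genes given above with a value, such as Dpysl4, Map1b, Vgf and Sucla2, were not among them. Of the 111, 90 kept their call under every alternative and 21 lost it under at least 1, and none reversed. With the Gapdh covariate 19 of the 111 lost their call: Ngfr, C1qc, Aif1, Cd68, Ccl2, Il33, Timp1, Serpinb1a, Mx1, Psmb8, Psmb9, Ifi30, Ifngr1, Tapbp, Slc5a7, Prph, Slc17a6, Cacng2 and Scn3b. Genes outside the 111 may have lost theirs as well. The causes of these shifts were not tested.

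Replicate numbers mark separate animals and pair nothing: of 4 same-numbered pairs none had a correlation of deviations over 0.1, and no Control animal correlated best with its own number. With the replicate block 923 probe sets and 9 interferon genes were called. The Spi-2 against Spi-7 count was 0 under every alternative. Amplification of a few neurons, the few Control animals and the lack of a sham operation limit the precision and the reading of all values.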
